A study of Mus musculus with 6 samples.

Results

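The contractile isoform genes described here are Myh6, Myh7, Myh7b, Acta1, Actc1, Tnni1, Tnni3 and Tnnt2, chosen by name for their part in the fetal and adult forms of the cardiac sarcomere. All 8 were found among the 24239 genes of the deposited table. They were measured in whole ventricles of 6 male C57BL/6 mice aged 8 to 10 weeks. In the pacing group (n = 3) an esophageal catheter drove the atria for 5 days and again for 3 days following a break of 2 days, 8 days of pacing in all. Each session held 45 min at a cycle length of 80 ms between 3 min at 120 ms before and 3 min at 120 ms after. The sham group (n = 3) had a sham intervention in its place. Pacing 1, 2 and 3 and sham 1, 2 and 3 name the mice. The labels do not say whether a number shared between the groups marks a pair or a batch, and it is used here as a name. Each gene has 1 FPKM value per mouse, that is fragments scaled by transcript length and by the size of the library, so that levels of different genes can be compared per length.

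The sarcomere is built from thick filaments of myosin and thin filaments of actin, with the troponin complex on actin making contraction depend on calcium. The mouse ventricle switches several of these proteins around birth: slow beta-myosin (Myh7) gives way to fast alpha-myosin (Myh6), slow skeletal troponin I (Tnni1) to cardiac troponin I (Tnni3), and skeletal alpha-actin (Acta1) becomes a minor companion of cardiac alpha-actin (Actc1). Renewed transcription of the fetal forms is a familiar sign of load and hypertrophy in rodent hearts. Tnnt2, which encodes cardiac troponin T, serves both stages through splicing, which a value per gene does not resolve, and Myh7b is a related myosin heavy chain gene that makes little protein in heart.

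Each of the 3 myosin heavy chain genes carries a microRNA in an intron, and the mature forms are shown because their seeds tie the 3 genes together. Capitals mark the seed, bases 2 to 8, and the sequences are those of RefSeq on GRCm38.p6.
miR-208a-3p in Myh6: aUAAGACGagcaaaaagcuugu
miR-208b-3p in Myh7: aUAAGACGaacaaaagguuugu
miR-499-5p in Myh7b: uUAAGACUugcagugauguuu
The Myh6 and Myh7 microRNAs share 1 seed, and that of miR-499-5p ends in another base. The rows of Mir208a, Mir208b and Mir499 hold 0.01 FPKM in all 6 mice, the lowest value in the table, so the microRNAs are listed at the floor in pacing and sham mice alike. The libraries were made from polyA RNA, which is not a measure of mature microRNAs.

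Myh6 and Myh7 are also near copies of each other, which bears on how their values were made. Over 5784 aligned bases of the longest GENCODE coding transcripts they were 91.9% identical, and the longest run present in both, 245 bases of coding sequence, is shown because it exceeds the read length of 151 bases.
Myh7 and Myh6 shared run: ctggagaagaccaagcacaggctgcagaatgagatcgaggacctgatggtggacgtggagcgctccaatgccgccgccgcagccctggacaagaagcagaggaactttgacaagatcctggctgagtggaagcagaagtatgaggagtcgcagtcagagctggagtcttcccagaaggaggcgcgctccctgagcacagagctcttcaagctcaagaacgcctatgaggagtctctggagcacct
In Myh7 it spans exons 32 and 33 of 41 (chr14:54974947-54975347, minus strand, GRCm38, spliced), and in Myh6 exons 30 and 31 of 39 (chr14:54948327-54948725, minus strand). Of all windows of 151 bases in the Myh7 transcript, 5.33% occur without a mismatch in Myh6. How the authors' counting divided such fragments is not given in the sources used here, so the low values of Myh7 beside the abundant Myh6 carry that uncertainty. No window of 151 bases was shared between Acta1 and Actc1 (86.3% identical where they align), between Myh7b and Myh6, or between Tnni1 and Tnni3.

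The promoters of the 2 actin genes are shown because the ratio of their transcripts is compared below. Both are RefSeq windows on GRCm38.p6, on the minus strand, from 250 bases before to 50 bases after the start site. Capitals mark the M-CAT motif (CATTCC, the element of TEAD factors) and the CArG box (the element of serum response factor), searched on both strands, and no match overlapped another.
Acta1 promoter, chr8:123894726-123895025: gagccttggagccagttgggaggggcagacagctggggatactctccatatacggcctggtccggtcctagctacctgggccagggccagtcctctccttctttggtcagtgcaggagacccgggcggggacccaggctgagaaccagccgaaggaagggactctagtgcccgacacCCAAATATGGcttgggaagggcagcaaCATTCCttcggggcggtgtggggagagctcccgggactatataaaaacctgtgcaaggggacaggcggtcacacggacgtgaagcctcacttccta
Actc1 promoter, chr2:114052826-114053125: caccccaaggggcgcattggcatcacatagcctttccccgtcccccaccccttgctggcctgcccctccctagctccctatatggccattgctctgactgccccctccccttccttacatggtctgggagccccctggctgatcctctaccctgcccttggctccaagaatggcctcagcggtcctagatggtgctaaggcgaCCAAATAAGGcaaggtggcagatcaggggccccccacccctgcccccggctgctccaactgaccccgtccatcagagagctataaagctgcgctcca
Counted from these RefSeq start sites, a CArG box begins 73 bases before the start in Acta1 and 47 bases before it in Actc1. An M-CAT motif begins 46 bases before the start site in Acta1 and is not among the letters of the Actc1 window. For Actc1 the RefSeq start site lies 64 bases from that of the deposited row, and the window lies inside the GENCODE gene (114047282 to 114053548). For Acta1 the RefSeq and deposited start sites are the same. The motif position and the lack of an M-CAT motif in Actc1 thus hold for this window only. Of 32851 promoters of the same length, 1.63% hold a CArG box and 14.7% an M-CAT motif. Such matches are a description of letters. Srf, the factor of the CArG box, stood at 21.0, 21.3 and 19.2 FPKM in pacing 1, 2 and 3, against 17.7, 18.4 and 17.5 FPKM in sham 1, 2 and 3. In the comparison over all genes below, Srf did not pass (limma adjusted p = 0.562), and 6.24% of genes tested were higher without overlap. Tead1 stood at 13.2 ± 1.81 FPKM in pacing and 13.6 ± 2.51 FPKM in sham mice (SD, n = 3 each), and Tead4 at 1.25 ± 0.0741 and 1.26 ± 0.274 FPKM.

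Several features of the libraries touch these genes. Effective depth, read from the spacing of low values, was 6280000 to 8914000 fragments per mouse, so that 1 FPKM on an effective length of 1 kb stands for 6.28 to 8.91 fragments. The ventricular light chain Myl2 was the leading ventricular marker, at 25481 to 26627 FPKM in pacing and 26899 to 39377 FPKM in sham mice. Of 8 ventricular markers, 2 had a higher mean in pacing (Hey2 and Hand2). Myl3, Kcnip2, Mybpc3 and Pln had a lower mean in pacing with overlapping groups. Atrial transcripts stood at unequal levels: the summed level of Myl7, Myl4 and Sln was 2405, 7344 and 5011 FPKM in pacing 1, 2 and 3, against 5288, 70.5 and 1979 FPKM in sham 1, 2 and 3. The sum of all 16 atrial markers, of which 13 had a higher mean in pacing, had the same order of mice. Single markers departed from it: Bmp10 was 38.1, 16.8 and 28.7 FPKM in pacing 1, 2 and 3, and Kcna5 was highest in sham 2 (10.5 FPKM). Whether these transcripts came from atrial tissue or from ventricular muscle was not tested. Lung markers summed to 317 and 1730.03 FPKM in pacing 2 and 3, and to at most 5.55 FPKM in the other 4 mice, and adipocyte markers to 290.2 to 585 FPKM in pacing and 12.7 to 247 FPKM in sham mice. All 6 fibroblast and all 6 macrophage markers had a higher mean in pacing, and none of 6 endothelial markers did. The adult fast skeletal myosins Myh1, Myh2 and Myh4 lay between 0.01 and 0.0421 FPKM in all mice. In whole tissue, fewer cells of a type and less RNA per cell cannot be told apart.

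The adult forms made up nearly all of each pair. Averaged over the 6 mice, Tnni3 (9515 FPKM) and Tnnt2 (9116 FPKM) stood highest, then Actc1 (6877 FPKM) and Myh6 (2488 FPKM). The fetal forms followed far below, with Acta1 at 109 FPKM, Myh7 at 19.9 FPKM and Tnni1 at 2.12 FPKM, and Myh7b at 12.0 FPKM lay between the last 2. In this order the values of Tnni3 and Tnnt2 overlapped over the 6 mice, as did those of Myh7 and Myh7b, and the other neighbours did not overlap. Together the 8 genes held 3.72% to 4.03% of all FPKM in pacing and 4.09% to 4.30% in sham mice.

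**Figure D1:**
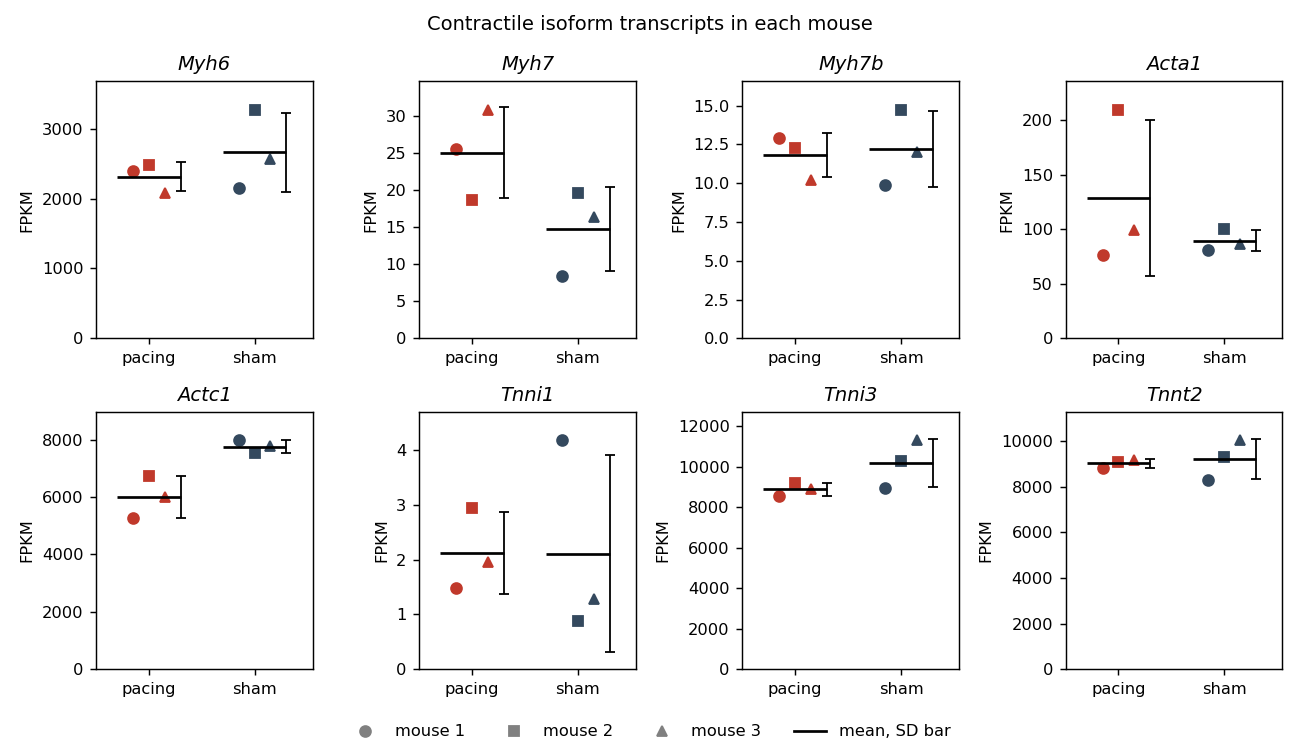
FPKM of the 8 genes in each mouse, with pacing on the left (red) and sham on the right (dark blue), group means as lines and SD as bars (n = 3 each). Actc1 is the gene whose groups are apart, at 5272 to 6724 FPKM in pacing and 7527 to 7976 FPKM in sham mice, and the Acta1 mean of pacing follows 1 mouse at 209.6 FPKM.

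Which of these genes differed after pacing was asked with limma on log2(FPKM + 1) over 11994 genes with a mean of at least 1 FPKM, a filter that all 8 passed. Fold changes are pacing minus sham on that scale, and for genes of a few FPKM they come out too small. No gene passed an adjusted p of 0.05 in either direction (0.00% higher and 0.00% lower, lowest limma adjusted p = 0.107), and so none of the 8 did. At an unadjusted p under 0.05 stood 1062 genes (8.85%), of which 620 were higher (5.17%), Myh7 among them, and 442 lower (3.69%), Actc1 among them. Rescaling every library to the same sum split such genes into 969 higher and 148 lower, and quantile normalization into 537 higher and 581 lower. The median log2 fold change was -0.03 over the 8 genes and -0.01 over all genes tested, with 3 of the 8 above 0 and 5 below.

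**Figure D2:**
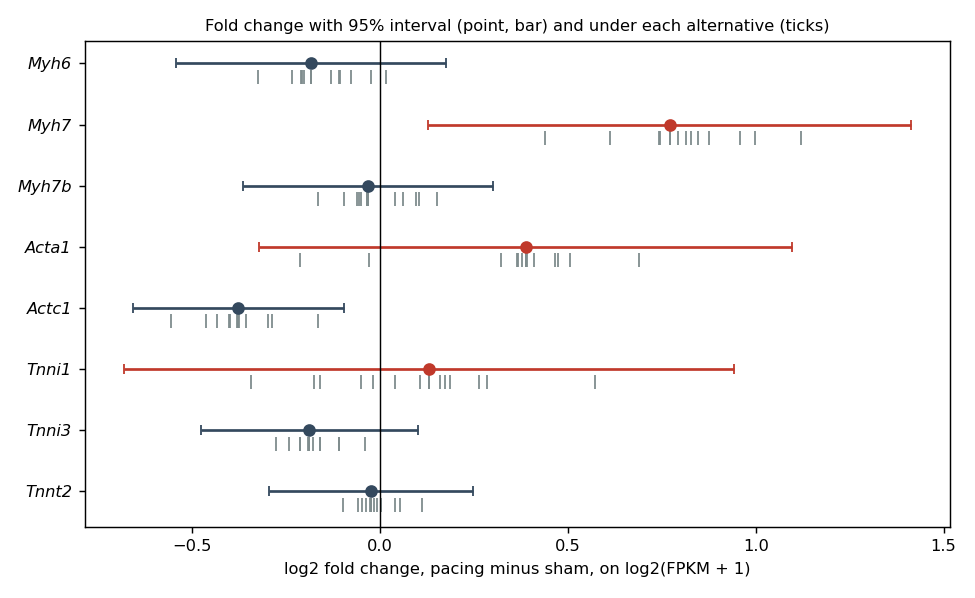
Log2 fold change (pacing minus sham, log2(FPKM + 1)) of each gene with its 95% interval from limma, and as grey ticks its value under each alternative processing. Red marks Myh7, Acta1 and Tnni1, and dark blue the other genes. The intervals of Myh7 (0.13 to 1.41) and Actc1 (-0.66 to -0.10) lie to 1 side of 0, and those of the other 6 genes include it.

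Among the myosins, the slow fetal form Myh7 had the largest fold change of the 8. Myh7 (chromosome 14, 54970684 to 54994626 on mm10, minus strand) stood at 25.6, 18.7 and 30.8 FPKM in pacing 1, 2 and 3, against 8.44, 19.5 and 16.3 FPKM in sham 1, 2 and 3. Pacing 1 and 3 lay above every sham mouse, pacing 2 lay between sham 3 and sham 2, and sham 1 was lowest by far. The means were 25.0 ± 6.08 FPKM in pacing and 14.7 ± 5.69 FPKM in sham mice (SD, n = 3 each). The log2 fold change was 0.77 (SE 0.28, limma adjusted p = 0.51). It did not pass over all genes, and without sham 1 it was 0.44 (limma adjusted p = 0.341). In the authors' deposited table, Myh7 had 24.8 FPKM in the pacing and 14.7 FPKM in the sham group with a q-value of 0.0519, and was not called.

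Myh6, the fast adult alpha-myosin, lies next to it on the same strand (chromosome 14, 54941921 to 54966927), with 3756 bases between the 2 genes in GENCODE. Myh6 stood at 2394, 2473 and 2077 FPKM in pacing 1, 2 and 3, against 2156, 3271 and 2559 FPKM in sham 1, 2 and 3. The paced values lay within or just below the sham range, and sham 2, the mouse with the lowest sum of Myl7, Myl4 and Sln, was highest. The log2 fold change was -0.18 (SE 0.16, limma adjusted p = 0.785), and it rested on single mice: -0.025 without sham 2, -0.11 without pacing 3 and -0.33 without sham 1.

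Myh7b stood at 12.9, 12.3 and 10.2 FPKM in pacing 1, 2 and 3, against 9.86, 14.7 and 12.0 FPKM in sham 1, 2 and 3. All paced values lay inside the sham range, with a log2 fold change of -0.03 (SE 0.15, 95% interval -0.37 to 0.30). Its sign turned without pacing 3 (0.061) and without sham 2 (0.10). Its level was below that of Myh7 in 5 mice and above it in sham 1.

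Set against Myh6 within each mouse, Myh7 took a larger share in all paced mice than in any sham mouse. Of the 2 transcripts together, Myh7 made up 1.06%, 0.75% and 1.46% in pacing 1, 2 and 3, against 0.39%, 0.593% and 0.632% in sham 1, 2 and 3. The mean share was 1.09% ± 0.357 in pacing and 0.538% ± 0.13 in sham mice (SD, n = 3 each). The log2 ratio of Myh7 to Myh6 was -6.56 ± 0.49 in pacing and -7.56 ± 0.38 in sham mice, a difference of 1.003 (SE 0.36), or a 2.00-fold higher ratio. The groups did not overlap (13.2% of single genes tested had no overlap, 6.24% in the higher direction). The exact permutation test, two-sided, gave p = 0.1, the smallest that 3 against 3 mice allow, and 0.15 adjusted over the 3 ratios compared. This ratio is free of library scaling, and its difference stayed between 0.76 and 1.25 with any 1 mouse left out.

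A long noncoding RNA lies on the opposite strand over the 3' end of Myh7. Mhrt (chromosome 14, 54968678 to 54974349, plus strand), known in the mouse heart as a Myh7 antisense transcript, shares 484 of its 1214 exonic bases with Myh7 exons in GENCODE. It stood at 53.9, 61.0 and 48.7 FPKM in pacing 1, 2 and 3, against 75.2, 55.0 and 71.4 FPKM in sham 1, 2 and 3, above Myh7 in every mouse. Its log2 fold change was -0.29 (SE 0.13, limma adjusted p = 0.579). The libraries were stranded, but whether the counting used strand is not given, so fragments from the shared bases cannot be assigned with certainty to either gene. The deposited Myh7 row starts at 54968787, before the GENCODE start of 54970684, so its span covers more of Mhrt.

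**Figure D3:**
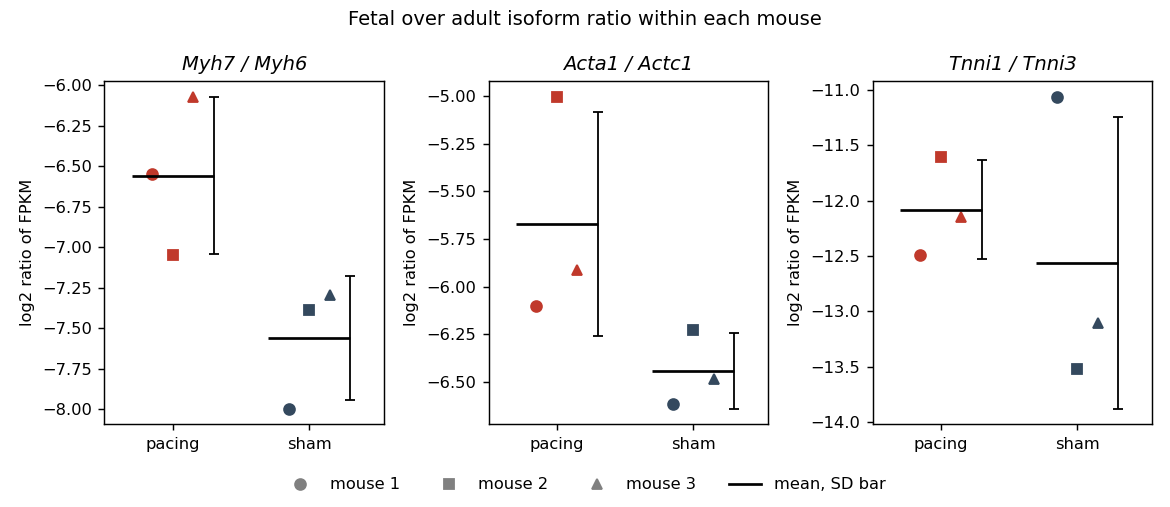
Log2 ratio of the fetal to the adult form in FPKM within each mouse, pacing on the left and sham on the right, with group means and SD (n = 3 each). The groups are apart for Myh7 over Myh6 and for Acta1 over Actc1, and overlap for Tnni1 over Tnni3, where sham 1 is highest and sham 2 lowest.

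Among the actins, neither form passed the test. The adult cardiac form had the lower mean in paced ventricles, and the skeletal form was high in 1 of them. Actc1 (chromosome 2, 114047282 to 114053548, minus strand) stood at 5272, 6724 and 5995 FPKM in pacing 1, 2 and 3, against 7976, 7527 and 7767 FPKM in sham 1, 2 and 3. Every paced value lay below every sham value, as in 6.97% of all genes tested. Actc1 was the 1 gene of the 8 without overlap, a share near the 13.2% of all genes without overlap in either direction. The means were 5997 ± 726 FPKM in pacing and 7757 ± 225 FPKM in sham mice (SD, n = 3 each). The log2 fold change was -0.38 (SE 0.12, limma adjusted p = 0.477). Quantile normalization brought it to -0.17 (limma adjusted p = 0.625). In the authors' deposited table Actc1 had a q-value of 0.776 and was not called.

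Acta1 (chromosome 8, 123891769 to 123894751, minus strand) stood at 76.8, 209.6 and 99.4 FPKM in pacing 1, 2 and 3, against 81.3, 100.6 and 86.8 FPKM in sham 1, 2 and 3. Pacing 2 stood far above the other 5 mice, which lay close together with both groups mixed. Skeletal muscle markers, led by the light chain Myl1, which atria also express, summed to 146, 253 and 200.3 FPKM in pacing 1, 2 and 3, against 284, 81.1 and 147 FPKM in sham 1, 2 and 3, and their part in the Acta1 values was not tested. The log2 fold change was 0.39 (SE 0.31, limma adjusted p = 0.769), and without pacing 2 it was -0.03 (limma adjusted p = 0.977). The authors' deposited table lists Acta1 at 128 FPKM in the pacing and 89.0 FPKM in the sham group with a q-value of 0.00328, and calls it higher, as it does 1.23% of its 24341 rows. It is the only 1 of the 8 genes with a call in the authors' deposited table, where 1.38% of rows are called in either direction.

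As a share of both actins, Acta1 made up 1.44%, 3.02% and 1.63% in pacing 1, 2 and 3, against 1.01%, 1.32% and 1.10% in sham 1, 2 and 3. The paced shares lay above the sham shares, with pacing 1 close to sham 2 and pacing 2 far from the rest. The mean log2 ratio was -5.67 ± 0.59 in pacing and -6.44 ± 0.20 in sham mice, a difference of 0.77 (SE 0.36, exact permutation p = 0.1, adjusted 0.15). Without pacing 2 the difference was 0.43 (exact permutation p = 0.2). In pacing 1 and 3 the higher ratio came with Actc1 below the sham range while Acta1 was inside it or below it.

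Troponin I showed no such separation. Tnni1, the fetal slow skeletal form (chromosome 1, 135779434 to 135810989, plus strand), stood at 1.48, 2.95 and 1.95 FPKM in pacing 1, 2 and 3, against 4.18, 0.873 and 1.28 FPKM in sham 1, 2 and 3. Sham mice held both the highest and the 2 lowest values. The means were 2.13 ± 0.75 FPKM in pacing and 2.11 ± 1.8 FPKM in sham mice (SD, n = 3 each), with a log2 fold change of 0.13 (SE 0.36, 95% interval -0.68 to 0.94). Its sign turned without pacing 2 (-0.052), sham 2 (-0.16) or sham 3 (-0.020), and without sham 1 it was 0.57. On 1 kb these levels stand for 12.0 to 22.9 fragments in pacing and 6.89 to 32.6 fragments in sham mice, where counting alone gives a coefficient of variation of 17.5% to 38.1%.

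Tnni3, the adult cardiac form (chromosome 7, 4518305 to 4524229, minus strand), stood at 8538, 9188 and 8896 FPKM in pacing 1, 2 and 3, against 8928, 10256 and 11286 FPKM in sham 1, 2 and 3. Pacing 2 lay above sham 1, and sham 2 and 3 lay above all paced mice. The log2 fold change was -0.19 (SE 0.13, limma adjusted p = 0.715), with -0.11 without sham 3. The log2 ratio of Tnni1 to Tnni3 was -12.1 ± 0.45 in pacing and -12.6 ± 1.3 in sham mice, a difference of 0.48 (SE 0.80, exact permutation p = 0.6, adjusted 0.6). Without sham 1 it was 1.23 (exact permutation p = 0.1), and without sham 2 it was 0.0014 (exact permutation p = 1).

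Tnnt2, cardiac troponin T (chromosome 1, 135836354 to 135852260, plus strand), was the steadiest in paced mice. It stood at 8818, 9069 and 9187 FPKM in pacing 1, 2 and 3, against 8295, 9301 and 10026 FPKM in sham 1, 2 and 3. The paced values lay inside the sham range, with a coefficient of variation of 2.09% in pacing and 9.44% in sham mice. The log2 fold change was -0.02 (SE 0.12, 95% interval -0.30 to 0.25), and without sham 3 it was 0.039.

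The level of atrial transcripts moved with some of these genes across mice. Tnni1 followed the atrial level in order within both groups: pacing 1, 3 and 2 and sham 2, 3 and 1, each from low to high in both measures. Over the 6 mice its correlation with the mean log2(FPKM + 1) of Myl7, Myl4 and Sln was r = 0.75 (exact permutation p = 0.0667) and rho = 0.94 (exact permutation p = 0.0167). Without sham 2 and pacing 2, the mice farthest from the median atrial level, r was 0.80 (n = 4). Myh6 ran the other way, with r = -0.89 (exact permutation p = 0.0417) and rho = -0.60 (exact permutation p = 0.242), and r = -0.98 without these mice. Of 8 genes compared in this way none passed after adjustment (lowest adjusted exact permutation p = 0.133 for rho and 0.178 for r). Myh7b had r = -0.76 (exact permutation p = 0.0514) and rho = -0.54, and r = -0.91 without sham 2 and pacing 2. Myh7 had r = -0.09 and rho = -0.20, and Actc1 r = -0.26 and rho = -0.03. With the atrial level as a covariate the direction turned for Tnni1, Myh6, Myh7b and Tnnt2. The log2 fold change was -0.34 for Tnni1 (limma adjusted p = 0.867), against 0.13 without it, and 0.015 for Myh6 (limma adjusted p = 0.992), against -0.18 without it. It was 0.15 for Myh7b, against -0.03, and 0.00195 for Tnnt2, against -0.02. In the same fit the log2 fold change of Myh7 was 1.12 (limma adjusted p = 0.512) and that of Actc1 -0.43 (limma adjusted p = 0.692). The part of lung and fat RNA in these values was not tested beyond the fits without single mice.

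**Figure D4:**
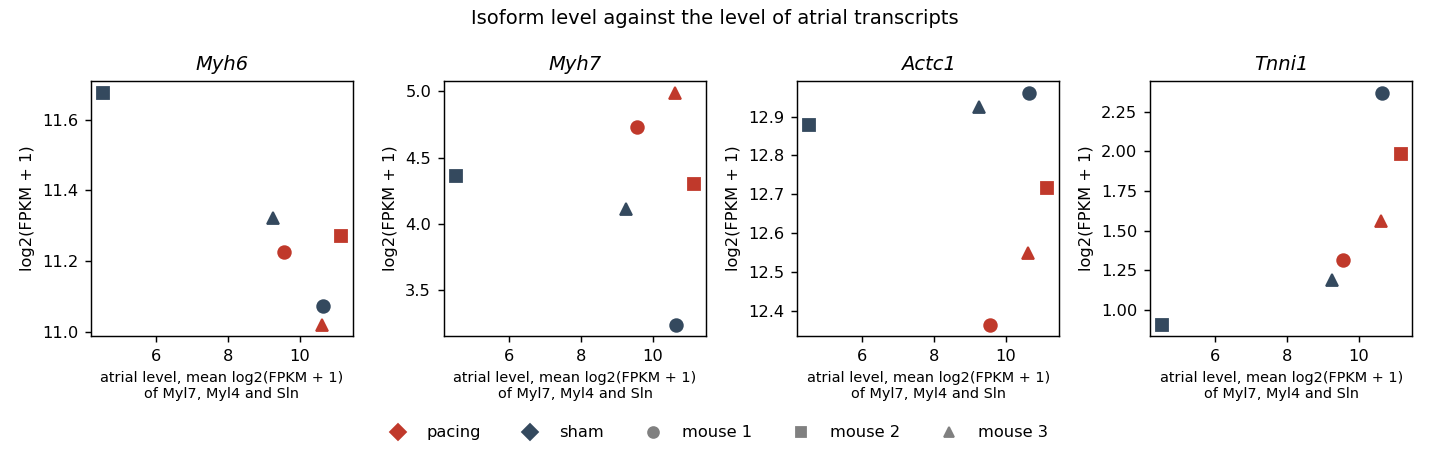
Log2(FPKM + 1) of 4 genes against the mean log2(FPKM + 1) of Myl7, Myl4 and Sln, 1 point per mouse, pacing in red and sham in dark blue. Tnni1 is lowest in sham 2 (0.873 FPKM) and highest in sham 1 (4.18 FPKM), Myh6 is highest in sham 2, and Actc1 is lower in the 3 paced mice than in any sham mouse.

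The wider contractile genes were read from lists chosen with earlier results of these data known. Of 13 thick filament genes tested, 6 had a positive and 7 a negative log2 fold change (median -0.03), and none passed. Myl2, the ventricular regulatory light chain, stood at 25940 ± 606 FPKM in pacing and 34040 ± 6432 FPKM in sham mice, and titin (Ttn) at 25.8 ± 2.65 and 31.8 ± 4.15 FPKM, both with groups apart. These were the only 2 of the 13 genes without overlap, a share near the 13.2% of all genes tested. Myosin binding protein C (Mybpc3) stood at 843 ± 91.7 FPKM in pacing and 1095 ± 216 FPKM in sham mice, with pacing 2 above sham 1. The 3 genes with the largest positive values of the list were Myl4, Myl7 and Mybphl, all of atrial muscle.

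Of 14 thin filament genes, 5 had a positive and 9 a negative log2 fold change (median -0.12), and none passed. Without overlap between the groups, 3 of the 14 were lower and 1 higher in pacing, against 6.97% and 6.24% of all genes tested. The 3 lower genes were Actc1, itself an isoform gene, Tnnc1 and Tpm1. As with Actc1, all 3 paced values of troponin C (Tnnc1) lay below all sham values, at 4097 ± 288 FPKM in pacing and 5235 ± 660 FPKM in sham mice (log2 fold change -0.35, SE 0.13, limma adjusted p = 0.51). Beta-tropomyosin (Tpm2), known both in fetal heart and in smooth muscle, stood at 28.9, 30.3 and 33.2 FPKM in pacing 1, 2 and 3, against 25.1, 12.2 and 20.0 FPKM in sham 1, 2 and 3 (log2 fold change 0.71, limma adjusted p = 0.447). Smooth muscle actin (Acta2) stood at 77.8 ± 14.1 FPKM in pacing and 45.9 ± 21.5 FPKM in sham mice. Of 7 smooth muscle markers 6 had a higher mean in pacing, and their summed level was 189 to 248 FPKM in pacing and 114 to 185 FPKM in sham mice. Their part in the values of Tpm2 and Acta2 was not tested.

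Of 14 fetal and stress genes tested, 9 had a positive and 5 a negative log2 fold change (median 0.27), and none passed. Over all genes 48.2% had a positive value. The list shares Myl4, which had its largest value (2.25), and Nppa with the atrial markers, of which 14 of 16 had a positive log2 fold change, and Acta2 with the smooth muscle markers, of which 6 of 7 did. All 6 fibroblast markers did too, and the part of these cell types in the list's values was not tested. Connective tissue growth factor (Ctgf) stood at 39.4, 63.1 and 55.2 FPKM in pacing 1, 2 and 3, against 28.8, 22.5 and 31.3 FPKM in sham 1, 2 and 3. The stretch-responsive Ankrd1 stood at 968 ± 43.7 FPKM in pacing and 825 ± 31.4 FPKM in sham mice, and the LIM protein gene Fhl1 at 81.0 ± 4.45 and 65.2 ± 4.64 FPKM, with the groups apart for all 3 genes. They were the only genes of the 14 without overlap, against 6.24% of all genes in the higher direction and 13.2% in either. B-type natriuretic peptide (Nppb), a standard load marker, had the same mean of 115 FPKM in both groups, with SDs of 15.4 FPKM in pacing and 34.2 FPKM in sham mice. Nppa stood at 5307 ± 1993 FPKM in pacing and 3629 ± 3474 FPKM in sham mice, its order matching the atrial transcripts within each group, whose part in it was not tested. Of 17 genes of cardiomyocyte maturation, 3 had a positive and 14 a negative log2 fold change (median -0.14), and none passed. Casq2, the calcium store protein of the sarcoplasmic reticulum, stood at 548 ± 48.7 FPKM in pacing and 641 ± 31.1 FPKM in sham mice.

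Skeletal muscle sarcomere genes were sparse, with 6 of 16 at a mean of at least 1 FPKM, and none passed. The slow skeletal troponin T, Tnnt1, another fetal form, had the lower mean in paced mice, at 17.2 ± 0.92 FPKM in pacing and 21.4 ± 3.4 FPKM in sham mice (log2 fold change -0.29, limma adjusted p = 0.553). Mybpc2, the fast skeletal myosin binding protein C, stood at 5.38 ± 1.54 FPKM in pacing and 3.41 ± 0.425 FPKM in sham mice.

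Regulators of the isoform switch showed no gene past the test. Of 28 tested, 10 had a positive and 18 a negative log2 fold change (median -0.03). The thyroid hormone receptor genes, whose products favour Myh6 over Myh7, stood at 40.7 ± 1.9 FPKM in pacing and 39.2 ± 4.39 FPKM in sham mice for Thra, and at 4.94 ± 0.316 and 5.20 ± 0.761 FPKM for Thrb. Sox6, a repressor of slow muscle genes, stood at 2.61 ± 0.149 FPKM in pacing and 2.60 ± 0.164 FPKM in sham mice. Dio2, which activates thyroid hormone, was below the filter, at 1.05, 0.388 and 0.278 FPKM in pacing 1, 2 and 3, against 0.249, 0.202 and 0.169 FPKM in sham 1, 2 and 3. The summed adipocyte markers had the same order of mice, and their part in the Dio2 values was not tested. The cardiac factor Gata4 stood at 32.5 ± 0.356 FPKM in pacing and 36.7 ± 1.73 FPKM in sham mice, with the groups apart (log2 fold change -0.17, SE 0.07). Of the 28 regulators, 1 was higher (Srf) and 2 were lower (Gata4 and Myocd) in pacing without overlap. Myocd stood at 7.04, 6.59 and 6.14 FPKM in pacing 1, 2 and 3, against 7.05, 7.96 and 7.57 FPKM in sham 1, 2 and 3. The shares over all genes tested were 6.24% higher and 6.97% lower.

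**Figure D5:**
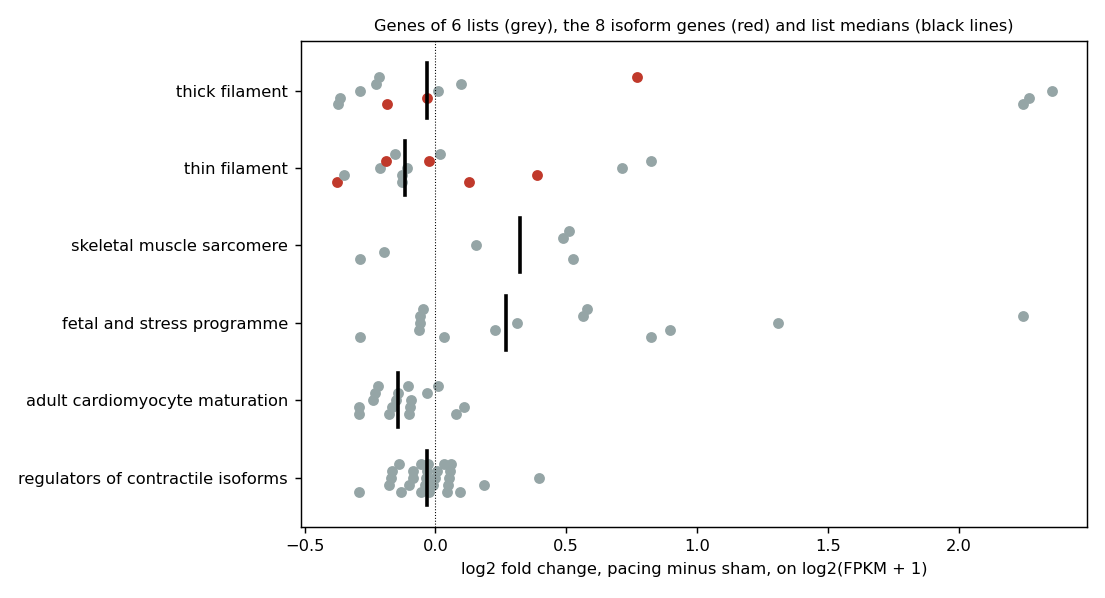
Log2 fold change (pacing minus sham, log2(FPKM + 1)) of the tested genes of 6 lists, 1 point per gene, with the 8 isoform genes in red and list medians as black lines. The thin filament median is -0.12, that of maturation genes -0.14 and that of fetal and stress genes 0.27, and the 3 points at the far right of the thick filament list are the atrial genes Myl4, Myl7 and Mybphl.

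The genes whose pattern over the 6 mice was most like each isoform gene were found by the correlation of log2(FPKM + 1), as a description over 6 values that share libraries. For Myh7 they were Anxa7, Synrg and Sec61b (r = 0.981 to 0.987), and 14 tested genes had r above 0.95. For Myh6 they were Scrn3, Dcaf6 and Map4 (r = 0.992 to 0.994), with 79 genes above 0.95, and for Myh7b they were Tln2, Acad8 and Mypn (r = 0.989 to 0.997), with 58. For Actc1 they were Plk2, Clk3 and Mlst8 (r = 0.989 to 0.997), with 33, and for Acta1 they were Msl3l2, Spink4 and Rdh11 (r = 0.976 to 0.995), with 19. For Tnni1 they were Ogfod2, Fmnl2 and Cdc42ep5 (r = 0.982 to 0.990), with 45. For Tnni3 they were the respiratory chain genes Ndufb4 and Atp5o and the micropeptide gene Mrln (r = 0.988 to 0.990), with 54, and for Tnnt2 they were Gm14295, Actl6a and Eif1ad (r = 0.982 to 0.993), with 17.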

How the data were processed

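Ventricles were frozen, and stranded polyA libraries were sequenced in paired reads of 151 bases, per the labels' protocols. Per the submitters' processing notes, the tools were Bowtie2 2.2.6, TopHat2 2.1.0, FastQC 1.0.0, Cuffdiff and Cufflinks, with mm10. Annotation and settings for counting are not given in these sources. The authors deposited FPKM per mouse (24239 genes, with 0.01 as the lowest value) and a table with an FPKM per group, a q-value and a call. That comparison holds 24341 rows. The row of 1 gene holds a failed estimate and was left out.

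With limma 3.58.1 (R 4.3.3), pacing was compared with sham on log2(FPKM + 1) (eBayes with a trend, group only, two-sided, Benjamini-Hochberg over 11994 genes with a mean of at least 1 FPKM), after a check on simulated data. Ratios used an exact permutation test over mice. Effective depth came from 644 genes with 1 exon, of which 48 to 60 values per library, those under 10 fragments, were used. Depth was chosen to make these values whole fragments. That 100% of them were whole within 0.05 of a fragment is thus no separate check of the depth. No pair of libraries shared more than 0.0135% of its values. The series design gives 3 mice per group. Gene coordinates are those of GENCODE M21 on GRCm38, with starts counted from 1. The spans of the deposited rows differ from these for some genes. Myh7b spans 81.1 kb there and 23096 bases in GENCODE, and Tnni1 11.6 kb and 31556 bases.

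Named were the 8 genes, up to 4 genes of each list with the smallest p, genes a result turned on, and the 3 genes most like each isoform gene. Genes with a known role in the switch (Thra, Thrb, Sox6, Dio2, Tead1, Tead4), Nppa, Nppb, the skeletal myosins and the atrial genes were named after their values were seen. The members and lists were chosen with earlier results of these data known.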

Additional observations from a re-analysis of the deposited data

How the results depend on the processing

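Replicate error and 3 mice per group limit what can be seen here, and Tnni1 is also limited by depth. Counts of genes called higher, 0 as reported, were 6 with no filter, 1 with robust eBayes and 7 with a replicate block, and 0 to 99 with 1 mouse left out (99 without sham 1). Counts called lower, 0 as reported, were 0 to 1 with 1 mouse left out. None of the 8 isoform genes passed under any alternative. The directions of Myh7 (0.44 to 1.12), Actc1 (-0.56 to -0.17) and Tnni3 (-0.28 to -0.04) held under all 18 alternatives run. Direction turned for 5 genes, whose log2 fold changes under those settings follow, and the cause was not tested. With the atrial covariate it was 0.015 for Myh6, 0.15 for Myh7b, -0.34 for Tnni1 and 0.00195 for Tnnt2. With rescaling to the same sum it was 0.039 for Myh7b and 0.053 for Tnnt2, and with quantile normalization 0.11 for Tnnt2. Without pacing 2 and pacing 3 it was 0.10 for Myh7b, -0.21 for Acta1 and -0.18 for Tnni1. With 1 mouse left out the ranges were -0.17 to 0.10 for Myh7b, -0.030 to 0.69 for Acta1, -0.16 to 0.57 for Tnni1 and -0.10 to 0.039 for Tnnt2. The 3 ratio differences kept their sign under all 10 alternatives each, at 0.76 to 1.25 for Myh7 over Myh6, 0.34 to 0.98 for Acta1 over Actc1 and 0.0014 to 1.23 for Tnni1 over Tnni3. The atrial covariate was not among these 10 and was not run on the ratios. With it the log2 fold change of Tnni1 (-0.34) was below that of Tnni3 (-0.16), so the sign of their ratio is not shown to hold there. The filter at a mean FPKM of 5 leaves no value for Tnni1. With a replicate block the ratio differences of 1.003, 0.77 and 0.48 had exact p-values of 0.25, 0.25 and 0.75, where 0.25 is the smallest possible. The same-numbered mice did not deviate together (correlations of -0.13, -0.02 and -0.02 for numbers 1, 2 and 3), and the numbers are not taken as pairs. With 3 mice per group these correlations cannot exclude a shared batch.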
